A study of Mus musculus with 3 samples.

Results

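Foxp3+ regulatory T cells of mouse skin and wound were examined at single-cell level. Foxp3 is the transcription factor that defines the regulatory T cell lineage, and cells were chosen by its transcript: a cell barcode was a member when it held at least 1 Foxp3 UMI (unique molecular identifier, 1 counted molecule), at least 1 UMI of Cd3d, Cd3e or Cd3g, the chains of the T cell receptor complex, and no UMI of the fibroblast receptor Pdgfra. Of 23384 barcodes kept in 3 libraries, 224 were members: 10 in non-lesional skin, 19 in the wound bed at day 2 and 195 at day 7. They were described against 650 Foxp3-negative T cell barcodes, with at least 2 Cd3 UMIs and no Foxp3 UMI, of which 274, 53 and 323 came from the same libraries in that order.

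Regulatory T cells restrain other lymphocytes through inhibitory receptors such as CTLA-4, through consumption of interleukin 2 by the receptor chain CD25 (Il2ra), and through cytokines such as interleukin 10. In skin and other barrier tissues they also carry a program with the interleukin 33 receptor ST2 (Il1rl1), GATA3 and KLRG1, and they are known for a role in tissue repair through amphiregulin (Areg), a ligand of the epidermal growth factor receptor. Skin also holds gamma delta T cells, CD8 T cells and innate-like lymphocytes, many of which make interleukin 17A or cytotoxic proteins, and these make up part of any Foxp3-negative comparator.

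Mice of the C57BL/6 strain, all male and 7-9 weeks old, gave the dorsal skin, with no transgene or drug in the labels. The wounds were full-thickness, 1.0 by 0.5 cm, in the telogen (resting) phase of the hair cycle, and each state is 1 library of droplet 3' sequencing after digestion with collagenase D and DNase1. The question of the series concerns IL1 and WNT signals in the dermal adipocyte lineage; the T cells were taken up with the rest of the tissue and were not sorted. The libraries held 102345327 to 138046172 UMIs, and no member barcode occurred among the kept barcodes of another library, although kept barcodes of different libraries shared 9 to 20 sequences per pair. The labels do not say how many mice were pooled.

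Depth and gate quality set how far each library could be read. Members had a median of 2999.5 UMIs in non-lesional skin, 1838 at day 2 and 3337 at day 7. The comparator had 3897, 1664 and 2351. A gene's level in a class of cells is its summed UMIs in that library, scaled as CPM to a total of 1000000 UMIs over the class, with exact 95% Poisson intervals, and shares with exact 95% Clopper-Pearson intervals; both cover counting error only. With 43728 UMIs in the 10 non-lesional members, 1 UMI is worth 22.9 CPM there. With 1 library per state, and fewer than 20 members in non-lesional skin and at day 2, levels are placed side by side without a ratio or test between states.

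The Foxp3 counts that chose the members are a description and support nothing. Members held 366 CPM of Foxp3 in non-lesional skin, 720 at day 2 and 534 at day 7, with medians of 1, 1 and 2 UMIs per cell and a maximum of 16. At day 7, 53 members held exactly 1 Foxp3 UMI, and 86.8% of these also held Ctla4, beside 83.1% of the 142 members with at least 2. Just outside the gate at day 7 lay 31 barcodes with Foxp3 but neither Cd3 nor Pdgfra, of which 48.4% held Ctla4. A further 26 barcodes had Foxp3, Cd3 and Pdgfra together, with a median of 31603 UMIs, and 88.5% of them held Ctla4. Fibroblast barcodes with Pdgfra, no Cd3 and a Foxp3 UMI numbered 55, and 1.82% of these held Ctla4.

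Most members also held regulatory T cell markers that the rule did not use. Both Ctla4 and Ikzf2, which encodes the transcription factor Helios, were detected in 8 of 10 non-lesional members, 16 of 19 at day 2 and 158 of 195 at day 7 (81.0%, 74.8 to 86.3). The same pair was found in 5.84%, 7.55% and 13.3% of the comparator, where a regulatory T cell whose Foxp3 was not captured would be counted. Cd3e, which the rule did use, was detected in 60.0%, 42.1% and 53.8% of members, so its detection is a description only. Cd8a was at 0 in all 224, and Cd4 was detected in 1, 4 and 99 of them. Cd8b1 was not absent: pooled over the libraries it gave 8 UMIs in members (6.58 CPM) and 36 in the comparator (9.04 CPM).

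Individual barcodes went against the label. One non-lesional member, singled out after its values were seen, held 1 Foxp3 UMI and no Ctla4 or Ikzf2, but all 25 Xcl1 UMIs of the non-lesional members, 14 of their 18 Nkg7 UMIs and all 12 Cd7 UMIs; these are genes of cytotoxic and innate-like lymphocytes. The deepest day 7 member, chosen in the same way, held 122251 UMIs, 10.9% of the day 7 members' total, with 1077 UMIs of the keratin Krt14, 518 of Krt17 and 1 Foxp3 UMI. Barcodes with more than 1% of their UMIs in any of 10 marker lists of other cells numbered 0, 2 and 20 of the members and held 23.2% of the members' UMIs at day 2 and 24.8% at day 7. Both day 2 barcodes exceeded 1% for dendritic cell markers, and the summed dendritic level of day 2 members was 7471 CPM, beside 229 in non-lesional skin and 1257 at day 7. No doublet caller was run. Levels without these 22 barcodes are given below for Ebi3, Il10, Penk and Il1b, and not for other genes carried largely by 1 barcode.

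Counted by at least 1 Foxp3 UMI, members made up a larger share of the Cd3+ barcodes in the wounds than in non-lesional skin. Among barcodes with Cd3 and no Pdgfra, Foxp3 was held by 10 of 311 in non-lesional skin (3.22%), 19 of 126 at day 2 (15.1%) and 195 of 572 at day 7 (34.1%), with intervals of 1.55% to 5.83%, 9.33% to 22.5% and 30.2% to 38.1%. These intervals do not overlap. The day 7 share is that of 1 library, so how far mice differ cannot be read from it. The Cd3+ barcodes were not deeper in the wounds, with medians of 3615, 1495 and 2499 UMIs. Barcodes were also thinned to 1000 UMIs each, and 3, 27 and 44 with fewer UMIs were dropped. Of the 217, 77 and 387 barcodes that then kept a Cd3 UMI, 0.461%, 10.4% and 20.9% held Foxp3. The intervals of day 2 (4.59% to 19.4%) and day 7 (17.0% to 25.3%) overlap. With at least 2 Foxp3 UMIs required, the shares of the unthinned Cd3+ barcodes were 0.965%, 4.76% and 24.8%. The intervals of non-lesional skin (0.199% to 2.79%) and day 2 (1.77% to 10.1%) overlap. Of all kept barcodes, members were 0.0971%, 0.239% and 3.79%.

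As a guide to free RNA, Foxp3 was read in fibroblast barcodes, which should lack the gene. Free RNA and a T cell in the same barcode with no Cd3 captured were not told apart there. Foxp3 occurred in 0.0197% of barcodes with Pdgfra and no Cd3 in non-lesional skin, 0.297% at day 2 and 2.28% at day 7, at median depths of 10082, 29038.5 and 27129.5 UMIs. These shares lie below the Foxp3+ share of Cd3+ barcodes in each library and rose in the same order of states. The fibroblast barcodes were deeper, and barcodes with both Pdgfra and Cd3 were left out of them by definition. How far free RNA contributed to the members was not tested.

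**Figure D1:**
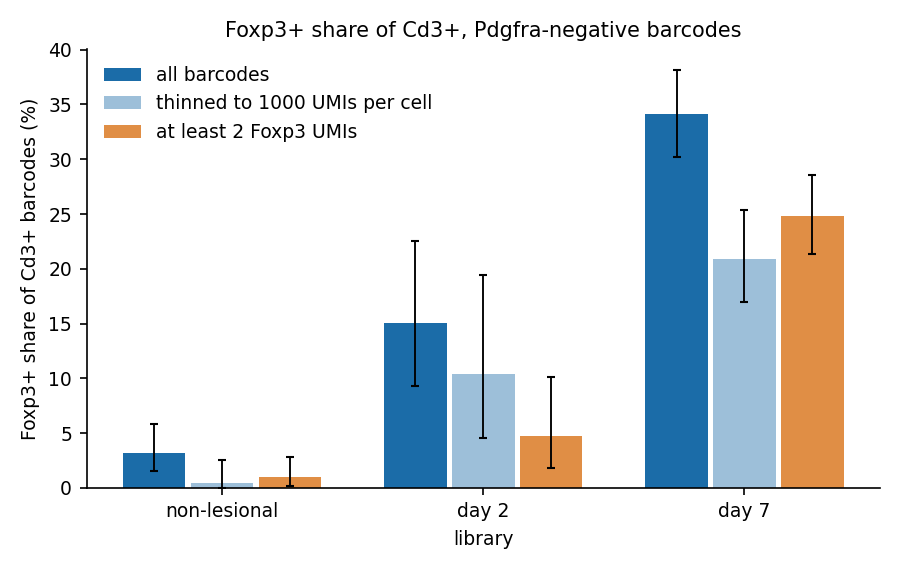
Share of Cd3+ barcodes without Pdgfra that held Foxp3 (y axis, percent) in the 3 libraries (x axis), as deposited, after thinning to 1000 UMIs per cell and with at least 2 Foxp3 UMIs required. Bars are shares of 1 library each and lines exact 95% intervals; the deposited shares were 3.22%, 15.1% and 34.1%.

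Across genes, UMIs were summed per library and class, and members were compared with the comparator by edgeR's quasi-likelihood test with the library as a block, adjusted by Benjamini-Hochberg over all genes tested and called at an adjusted p under 0.05. The p-values come from 3 libraries of different tissue states, which are not replicates of one state. They rest largely on dispersion shared across genes, so they do not measure each gene's own spread over the libraries. Of 7577 genes, 145 were higher in members (1.91%) and 544 were lower (7.18%). The gate kept Pdgfra+ barcodes out of the members but not out of the comparator, which held 24, 5 and 30 of them, so fibroblast genes are lower in members by the rule itself. With Pdgfra at 0 in both classes, a setting chosen after the data were seen, 38 of 6241 genes were higher (0.609%) and 105 lower (1.68%). In the first comparator Pdgfra+ barcodes gave 16.6%, 67.3% and 46.4% of the UMIs of the 3 libraries, and these UMIs count in the total by which its T cell genes' CPM are divided. Of the 145 genes, 37 were higher in both settings (25.5%), and 80 of the 544 were lower in both (14.7%). Without the mixed barcodes as well, the counts were 51 and 100 of 4960. Leaving out the day 2 library gave 31 higher and 250 lower in the first setting, and leaving out day 7 gave 18 and 95. Below, "both comparators" means the call held in both settings, and the Pdgfra-free comparator is named wherever the call was lost. Counts of list genes called are to be read beside the shares of all genes: 1.91% higher and 7.18% lower, or 0.609% and 1.68% with Pdgfra at 0.

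The core regulatory T cell genes were higher in members as a group. Of 17 tested, 11 were higher and 0 lower, with a median log2 difference of 1.59 beside -0.10 over all genes, and 7 of 18 were higher against the Pdgfra-free comparator (median 1.54, beside -0.06). Ctla4, the inhibitory receptor that removes co-stimulatory ligands from antigen-presenting cells, measured 595 CPM in non-lesional members (388 to 871), 1386 at day 2 and 1010 at day 7 (952 to 1071). The comparator held 19.9, 65.5 and 114 CPM, below the members in each library, and with Pdgfra at 0 it held 21.4, 200 and 203 CPM, still below them. The log2 difference of Ctla4 was 3.77 ± 0.44 (SE; adjusted p = 1.5e-14), and 3.00 ± 0.38 with Pdgfra at 0. It was called in all 13 alternative settings that tested it.

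Other genes of this list were above the comparator in each library. Ikzf2 measured 1212, 1260 and 1733 CPM, beside 197, 116 and 311 in the comparator, a log2 difference of 2.50 ± 0.41 (adjusted p = 1.02e-07). Il2ra, the high-affinity interleukin 2 receptor chain, measured 480, 648 and 433 CPM beside 77.2, 65.5 and 98.8, with a log2 difference of 2.33 ± 0.42. Tnfrsf18, which encodes the co-stimulatory receptor GITR, measured 526, 540 and 535 CPM beside 91.9, 68.5 and 82.2. All 3 genes were called with both comparators, and their members' intervals lay above the comparator's in each library. Ikzf4, the Helios relative Eos, had a log2 difference of 2.40 ± 0.54 and was also called with both. Icos, Cd83, Socs2 and Izumo1r were called higher only with the first comparator; Icos measured 434, 936 and 878 CPM, and its adjusted p with Pdgfra at 0 was 0.299. Lrrc32, which encodes GARP, the cell-surface anchor of latent TGF-beta, was not called (adjusted p = 0.527), at 160, 0 and 57.3 CPM.

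Genes of suppressive cytokines were among the largest differences. Ebi3, a subunit of interleukins 27 and 35, measured 114 CPM in non-lesional members, 90.0 at day 2 and 53.7 at day 7, from 5, 5 and 60 UMIs, beside 2.10, 11.9 and 5.17 in the comparator (log2 difference 3.52 ± 0.60, adjusted p = 5.49e-07). The day 2 level rested on 1 barcode with 80.0% of its UMIs, and without the mixed barcodes it was 23.4 CPM. Il10 measured 91.5, 612 and 90.4 CPM. The counting intervals were 24.9 to 234, 424 to 855 and 73.7 to 110, and the states were not tested against each other. The day 2 level came from 34 UMIs in 6 of 19 cells and was 680 CPM without the mixed barcodes. Its interval treats UMIs of the same cell as independent and may be too narrow. In the comparator Il10 measured 1.57, 59.5 and 23.6 CPM, with day 2 again the highest. The log2 difference was 2.70 ± 0.46 (adjusted p = 5.69e-07), and 1.64 ± 0.42 with Pdgfra at 0 (adjusted p = 0.0222). Itgb8, the integrin chain that releases active TGF-beta, measured 160, 162 and 149 CPM, beside 6.82, 8.93 and 24.1, with a log2 difference of 3.14 ± 0.50 called with both comparators. Tgfb1 itself was not called, at 160, 198 and 149 CPM in members (log2 difference 0.32 ± 0.43).

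Co-stimulatory and inhibitory receptors followed. Of 17 tested, 11 were higher and 1 lower, with a median log2 difference of 1.45; with Pdgfra at 0, 3 of 16 were higher and 2 lower (median 0.75). Tnfrsf4, which encodes the survival receptor OX40, measured 1052 CPM in non-lesional members, 810 at day 2 and 614 at day 7, the first with an interval of 770 to 1403 and the last of 569 to 662. The comparator held 22.6, 71.4 and 82.1 CPM. The log2 difference was 3.61 ± 0.44 (adjusted p = 3.45e-13) and 2.91 ± 0.43 with Pdgfra at 0. Tnfrsf9, which encodes the activation receptor 4-1BB, measured 160 CPM in non-lesional members, 864 at day 2 and 808 at day 7, with intervals of 64.4 to 330, 637 to 1146 and 756 to 862. It was detected in 4 of 10, 15 of 19 and 168 of 195 members, and the states were not tested against each other. Tnfrsf9 was higher with both comparators (log2 difference 2.30 ± 0.44). Cd5, a receptor that dampens T cell receptor signals, measured 252, 216 and 212 CPM (log2 difference 2.45 ± 0.43). Cd200r1, an inhibitory receptor of the CD200 ligand, rested on 1, 1 and 73 UMIs and was not tested with Pdgfra at 0. The gene lower with both comparators was Cd96, a receptor of T and NK cells, at 22.9, 0 and 8.95 CPM in members (log2 difference -2.27 ± 0.70).

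**Figure D2:**
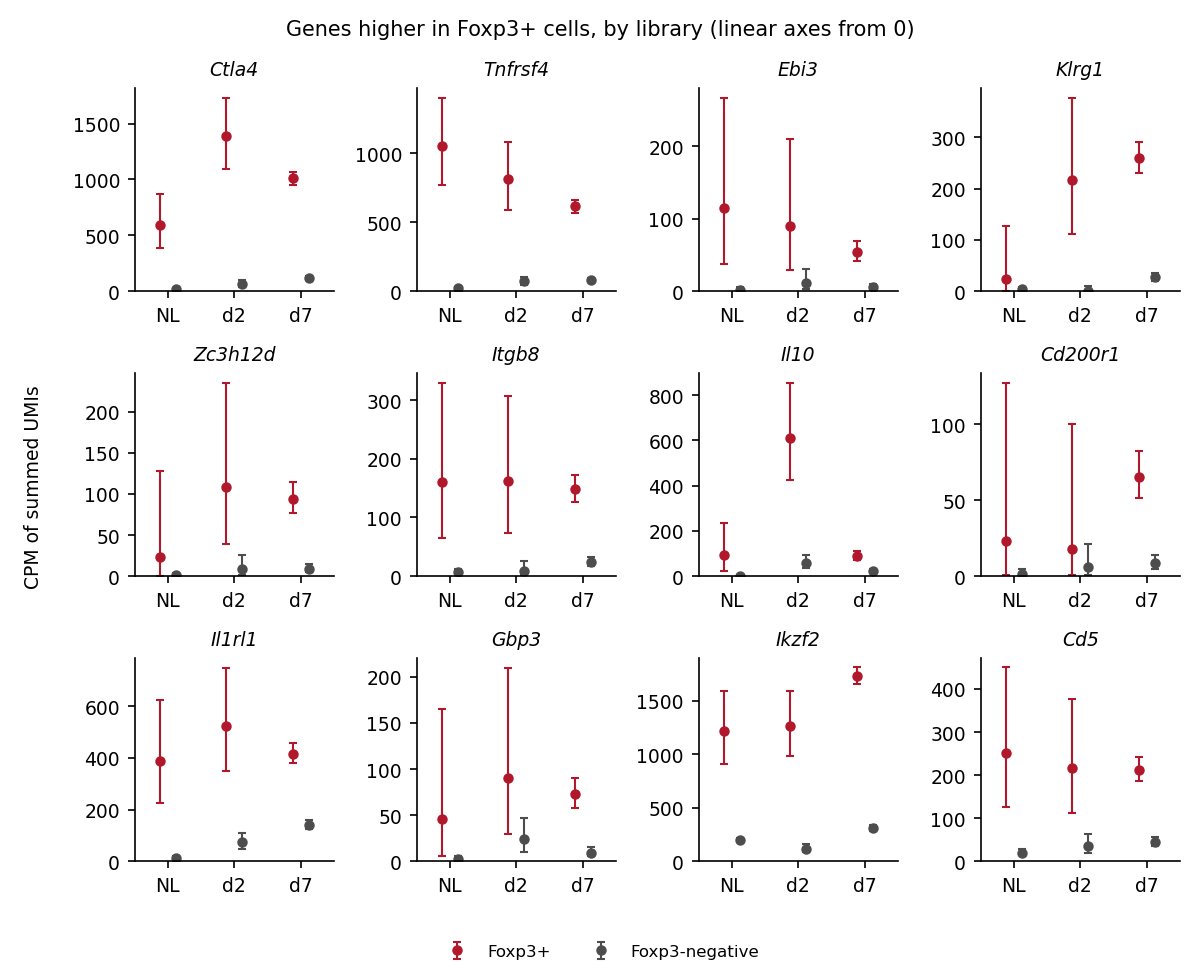
CPM of summed UMIs (y axes, linear from 0) of the 12 named genes that were higher in Foxp3+ cells, in non-lesional skin (NL), day 2 (d2) and day 7 (d7), for Foxp3+ (red) and Foxp3-negative (grey) T cells. Points are 1 library each and lines exact 95% Poisson intervals; Tnfrsf4 and Il1rl1 lie above the comparator in every library, and Il10 stands highest at day 2 with 612 CPM.

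Genes of the tissue and repair list were higher in members over the 3 libraries, and no state was tested alone. Of 16 tested, 9 were higher and 0 lower (median log2 difference 1.67), and with Pdgfra at 0 6 of 15 were higher (median 1.15). Il1rl1, the interleukin 33 receptor of the IL1 family, measured 389 CPM in non-lesional members, 522 at day 2 and 416 at day 7, with intervals of 226 to 622, 350 to 750 and 379 to 456. The comparator held 12.1, 74.4 and 141 CPM. The members' intervals overlap between the 3 states, which were not tested against each other. The log2 difference was 2.62 ± 0.44 (adjusted p = 2.72e-07), and 2.54 ± 0.43 with Pdgfra at 0 (adjusted p = 0.000212). Of the 17 non-lesional UMIs, 52.9% came from 1 of 5 cells.

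Il1rl1 lies on chromosome 1 at 40429570 to 40465415 on the plus strand (mm10, GENCODE M21), and RefSeq gives it 2 start sites. The 250 bases before each are shown because Il1rl1 is the member of the IL1 receptor family that was higher here, and the core forkhead letters TGTTTAC, or GTAAACA on the other strand, stand in capitals where found:
Il1rl1 first start, chr1:40429320-40429569, plus strand: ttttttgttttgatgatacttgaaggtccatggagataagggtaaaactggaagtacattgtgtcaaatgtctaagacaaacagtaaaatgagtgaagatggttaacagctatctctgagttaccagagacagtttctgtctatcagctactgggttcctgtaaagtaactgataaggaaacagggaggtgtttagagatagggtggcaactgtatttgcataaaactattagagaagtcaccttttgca
Il1rl1 second start, chr1:40439379-40439628, plus strand: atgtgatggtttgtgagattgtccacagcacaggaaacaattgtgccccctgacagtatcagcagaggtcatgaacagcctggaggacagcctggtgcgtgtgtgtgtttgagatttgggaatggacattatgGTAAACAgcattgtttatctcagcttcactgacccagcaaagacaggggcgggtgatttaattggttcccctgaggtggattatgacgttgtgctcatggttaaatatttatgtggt
The second window holds the letters once and the first does not. Of RefSeq genes with a promoter window of 300 bases (250 before to 50 after the start, GRCm38.p6), 4.05% held them on either strand, and so did 3.19% of the 5890 matched genes tested and 7 of the 96 matched genes called higher (7.29%). Among the Pdgfra-free calls it was 2 of 24. Neither Foxp3 window nor those of Ctla4, Il2ra, Ebi3, Itgb8, Tnfrsf4, Zc3h12d or Cd5 held the letters, and 1 of the 2 Gbp3 windows did. A match describes letters in a window, and the 3' counts do not say which start was used.

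Klrg1, an inhibitory receptor of mature tissue lymphocytes, was low in non-lesional members, at 22.9 CPM from 1 UMI, and measured 216 at day 2 and 260 at day 7. The intervals were 0.579 to 127, 112 to 377 and 231 to 291. It was detected in 1 of 10, 6 of 19 and 112 of 195 members. The intervals cover counting error only, and the states were not tested against each other. Against the comparator, where day 2 held no UMI and day 7 measured 27.0 CPM, the log2 difference was 3.48 ± 0.53 (adjusted p = 7.64e-09). Batf, a transcription factor needed for tissue regulatory T cells, measured 252, 108 and 176 CPM and was higher with both comparators (log2 difference 2.39 ± 0.45). Gata3, a transcription factor of type 2 and tissue T cells, measured 457, 360 and 434 CPM, and its call was lost with Pdgfra at 0 (1.80 ± 0.41, then 1.15 ± 0.34 with adjusted p = 0.0575). Rora, a nuclear receptor expressed by skin regulatory T cells, measured 938, 990 and 1442 CPM and was not called (0.92 ± 0.40).

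Penk and Tff1 were higher with both comparators and were carried by few cells. Penk, the precursor of the enkephalin peptides, measured 68.6, 108 and 337 CPM and was detected in 49 of 195 day 7 members, with 31.9% of the 376 UMIs in 1 barcode; without the mixed barcodes it was 286 CPM. The log2 difference of Penk was 2.25 ± 0.49. Tff1, which encodes a secreted trefoil peptide, measured 160, 0 and 222 CPM and was detected in 53 day 7 members (log2 difference 3.34 ± 0.55). It was at 0 in both classes at day 2, where the upper bound in members was 66.4 CPM. Ccr8, a chemokine receptor of skin T cells, gave 0, 1 and 11 UMIs in the 3 libraries and was not tested.

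Areg did not separate the classes. Members held 480 CPM in non-lesional skin from 21 UMIs in 4 cells, 72.0 at day 2 and 347 at day 7 (314 to 384), detected in 42.6% of day 7 members. The comparator held 1095 CPM in non-lesional skin, 152 at day 2 and 136 at day 7. Members therefore lay below the comparator in non-lesional skin and above it at day 7, and the log2 difference over the libraries was -0.47 ± 0.46 (adjusted p = 0.75). With Pdgfra at 0 the comparator at day 7 was 226 CPM, still below the members' interval. Whether the 2 states differ in this respect was not tested.

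Among the IL1 family genes, Il1rl1 was the gene called higher. Of 11 tested, 3 were lower (Il1r1, Il1rl2 and Il33), and of 9 with Pdgfra at 0, 3 were lower (Il1r1, Il18r1 and Il1b), so Il1r1 was lower in both settings; Il1rl2 and Il33 were not tested in the second. Il1r1, the signalling receptor of interleukin 1, was at 0 in the members of non-lesional skin and day 2 and at 9.85 CPM at day 7, from 11 UMIs in 8 cells. The comparator held 59.8, 119 and 66.6 CPM (log2 difference -3.26 ± 0.62, adjusted p = 1e-05), and the difference was as large with Pdgfra at 0 (-3.33 ± 0.61). The zero levels allow up to 84.4 and 66.4 CPM, so for non-lesional skin alone a lower level was not detectable. Il18r1 was lower only with Pdgfra at 0 (-1.69 ± 0.39, adjusted p = 0.0073), where members held 45.7, 144 and 78.8 CPM beside 77.5, 400 and 270. Il1r2, the decoy receptor that binds interleukin 1 without signalling, measured 183, 252 and 176 CPM in members beside 82.4, 83.4 and 73.5, and was not called (1.03 ± 0.42, adjusted p = 0.123). Il1b was lower with Pdgfra at 0; 43 of the 44 Il1b UMIs of day 2 members came from 1 barcode, and the day 2 level was 792 CPM with the mixed barcodes and 23.4 without.

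Effector cytokines and cytotoxic genes were mostly lower in members. Of 16 tested, 11 were lower and 1 higher, with a median log2 difference of -2.02, and with Pdgfra at 0 12 were lower and 1 higher (median -2.89); the medians were the same with Tnfsf14, at 0 in members, set to its bound. Il17a, the cytokine of gamma delta and helper 17 T cells, was at 0 in non-lesional and day 2 members and at 4.48 CPM at day 7, from 5 UMIs in 3 cells. The comparator held 632, 17.9 and 202 CPM. The log2 difference was -5.91 ± 0.70 (adjusted p = 3.87e-14), and -6.26 ± 0.59 with Pdgfra at 0; Il17a was the named lower gene with the largest difference. At day 2 the members' upper bound of 66.4 CPM lies above the comparator's level, so that library carries no information on Il17a.

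Ifng, Nkg7, Csf2 and Ccl5 were lower with both comparators. Ifng measured 0, 54.0 and 4.48 CPM in members and 69.8, 32.7 and 69.5 in the comparator (-3.08 ± 0.70). Nkg7, a granule protein of cytotoxic cells, measured 412, 0 and 6.27 CPM, the non-lesional level being mostly from the single barcode described above, beside 438, 56.6 and 291 (-3.07 ± 0.58). Tnf measured 68.6, 18.0 and 43.0 CPM beside 44.1, 220 and 121 (-1.71 ± 0.49). Csf2, which encodes the growth factor GM-CSF, gave 2 UMIs in all members (-3.64 ± 0.93). Several genes of other lymphocytes gave no UMI in any member. Against a floor of 3 UMIs over all members (2.47 CPM), Cd163l1 and Blk of gamma delta T cells were at least 21.9-fold and 15.0-fold lower, Cd160 at least 6.82-fold, Il13 5.70-fold, Prf1 (perforin) 5.60-fold and Il22 5.29-fold lower. These bounds pool libraries that weigh differently in the classes: day 7 gave 91.8% of the members' UMIs and 43.7% of the comparator's. Within day 7 alone the bounds were 18.6-fold for Cd163l1, 4.70-fold for Cd160, 5.13-fold for Prf1 and 2.35-fold for Il22. Against the day 7 floor of 2.69 CPM, the comparator held 32.2 CPM of Blk and 4.02 CPM of Il13, the smallest margin of these 6 genes. Other markers of such lymphocytes were detected in members, with levels pooled over the libraries. Of gamma delta markers, Il23r gave 13 UMIs (10.7 CPM beside 17.3 in the comparator) and Sox13 gave 1 (0.822 beside 10.3). Of NK and innate lymphoid markers, Tyrobp gave 45 (37.0 beside 80.1), Klrk1 11 (9.05 beside 116) and Gzma 12 (9.87 beside 17.1). These genes mark lymphocytes that the comparator holds, and their part in the other differences was not tested.

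Gzmb was the member of this list that was higher. Granzyme B measured 91.5 CPM in non-lesional members, all 4 UMIs in 1 cell, 648 at day 2 and 301 at day 7 (270 to 335), where 87 of 195 members held it. The comparator held 15.2, 65.5 and 66.6 CPM, and the log2 difference was 2.36 ± 0.46 (adjusted p = 1.33e-05), and 1.57 ± 0.38 with Pdgfra at 0. One barcode gave 72.2% of the day 2 UMIs.

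**Figure D3:**
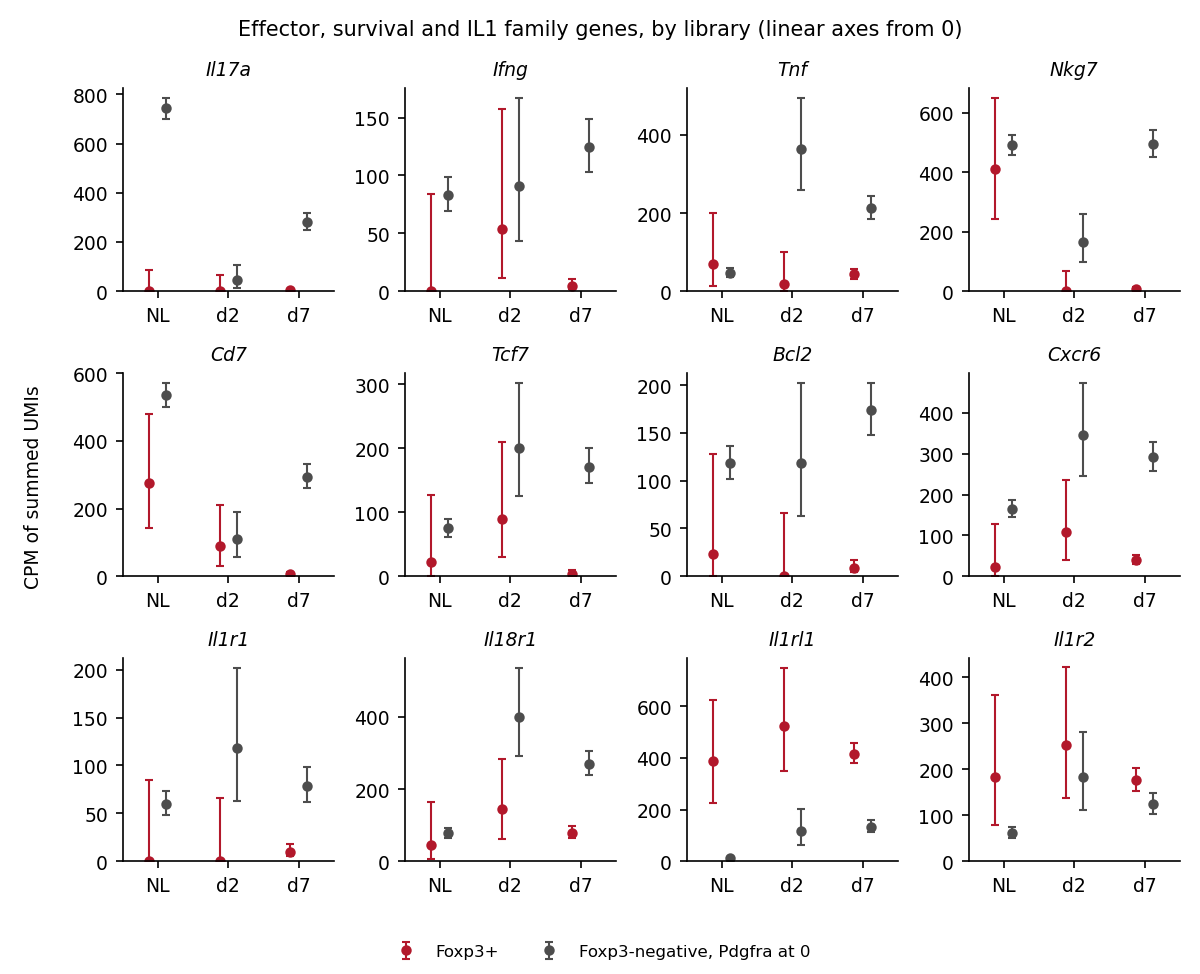
CPM of summed UMIs (y axes, linear from 0) of 12 effector, survival and IL1 family genes in non-lesional skin (NL), day 2 (d2) and day 7 (d7), for Foxp3+ cells (red) and Foxp3-negative T cells without Pdgfra (grey). Points are 1 library each and lines exact 95% Poisson intervals; Il17a and Bcl2 lie near 0 in Foxp3+ cells at day 7 (4.48 and 8.95 CPM), whereas Il1rl1 is the higher of the pair in each library.

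Genes of the interleukin 2 pathway were divided. Stat5a, the signal transducer of the interleukin 2 receptor, was higher with both comparators, at 229, 234 and 145 CPM beside 33.6, 62.5 and 63.2 (log2 difference 1.54 ± 0.42). Bcl2, the survival factor of long-lived T cells, was lower with both, at 22.9, 0 and 8.95 CPM in members beside 110, 47.6 and 113 (-3.67 ± 0.63, adjusted p = 7.25e-07). It was detected in 1, 0 and 4 members. Of the 14 tested genes of this list, 3 were higher and 2 lower, and with Pdgfra at 0 2 were higher and 1 lower.

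Tcf7, which encodes TCF1, a transcription factor of naive and memory T cells and a WNT pathway effector, was lower with both comparators. It measured 22.9 CPM in non-lesional members, 90.0 at day 2, where all 5 UMIs lay in 1 barcode, and 3.58 at day 7, where 4 of 195 members held it. The comparator held 68.8, 65.5 and 104 CPM, and the log2 difference was -2.95 ± 0.63 (adjusted p = 0.000122). Of 25 transcription factors tested, 5 were higher (Batf, Gata3, Ikzf2, Prdm1, Tox) and 2 lower (Tcf7, Zeb2). Batf and Ikzf2 were the 2 of 26 that were higher with Pdgfra at 0. Of 23 activation genes, Tnfrsf9 was higher and the immediate early genes Egr1 and Jun were lower, with both comparators. With the first comparator 1.91% of all genes were higher and 7.18% lower, and the lower counts of both lists lie near the latter. Jun measured 343, 450 and 872 CPM in members beside 1409, 1587 and 1784 (-1.91 ± 0.41).

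Of 12 chemokine receptors tested, 3 were higher and 1 lower (median log2 difference 1.02), and with Pdgfra at 0, 0 of 13 were higher by edgeR, 2 of them at an unadjusted p under 0.05, and 1 was lower (median 0.30). Cxcr6, the receptor of CXCL16 on tissue-resident T cells, was lower with both comparators, at 22.9, 108 and 39.4 CPM beside 148, 113 and 165 (-1.82 ± 0.48). Ccr2, Ccr4 and Ccr1 were higher with the first comparator only. Ccr2, a receptor of monocyte chemoattractants, measured 206, 486 and 464 CPM in members beside 38.8, 116 and 165, and its adjusted p with Pdgfra at 0 was 0.298. Ccr7 was not called, and 67.9% of its 28 day 2 UMIs lay in 1 barcode.

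Ifi27l2a, an interferon-inducible gene, was higher with both comparators. Members held 206 CPM in non-lesional skin, 594 at day 2 and 1054 at day 7, with counting intervals of 94.1 to 391, 409 to 834 and 995 to 1116; the states were not tested against each other. The comparator held 71.4, 101 and 180 CPM, the same order (log2 difference 1.95 ± 0.43). Of 16 interferon response genes tested, 2 were higher and 2 lower, so the list as a whole did not move one way (median -0.06). Gbp3, a guanylate-binding protein, was the other higher gene, and its call was lost with Pdgfra at 0 (adjusted p = 0.0878). Zc3h12d, an RNA-degrading regulator of lymphocytes, gave 1, 6 and 105 UMIs and was higher with both comparators (3.26 ± 0.62).

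Proliferation genes were not called apart between the classes: edgeR called 0 of 26 genes in either direction, and so did DESeq2. At an unadjusted p under 0.05, 6 were higher and 0 lower, and the median log2 difference was 0.48. Mki67 measured 45.7, 144 and 334 CPM in members beside 80.3, 11.9 and 116 (1.17 ± 0.47, adjusted p = 0.116). After thinning to 1000 UMIs, cells with at least 2 UMIs of 11 mitosis genes were 0 of 10 non-lesional members, which allows a share of up to 30.8%, 2 of 17 at day 2 and 25 of 195 at day 7 (12.8%, 8.47 to 18.3). In the comparator they were 30 of 272, 0 of 45, which allows up to 7.87%, and 23 of 299. Whether the shares differ between the classes was not tested.

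A narrower comparator, Foxp3-negative T cells with at least 1 Cd4 UMI, sets the members beside Cd4+ barcodes, Pdgfra+ ones included. It held 15 cells in non-lesional skin and 48 at day 7; day 2 had 7 and was not entered, and 10 of 2964 genes were higher and 142 lower in members. The lower genes included matrix genes, such as Lox (-4.66), Crispld2 (-4.09), Fbln2 (-3.94) and Loxl2 (-3.65). Among the named genes, Ctla4, Ikzf2, Tnfrsf4 and Il10 were higher here too. Ctla4 had a log2 difference of 1.56 (adjusted p = 0.0114), Ikzf2 one of 1.59 and Tnfrsf4 one of 1.53, each smaller than against all Foxp3-negative T cells. Il10 had 2.47 (adjusted p = 0.0483). Klrg1 (0.96), Itgb8 (1.11), Il1rl1 (1.18) and Cd5 (0.96) were above 0 and were not called, with adjusted p-values from 0.136 to 0.603.

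Metabolic and stress lists gave few calls with Pdgfra at 0 in both classes. Of 23 glycolysis and hypoxia genes, 5 were lower with the first comparator (Bnip3, Hk2, P4ha1, Slc16a3, Vegfa) and edgeR called 0 of 22 with the Pdgfra-free one, where 1 was higher and 2 lower at an unadjusted p under 0.05. Of 19 lipid and sterol genes, Dgat2 was higher and Abca1 and Lpl lower, and edgeR called 0 of 15 with Pdgfra at 0, with 1 higher and 1 lower at an unadjusted p under 0.05. Of 12 heat shock genes, Atf3 and Hspa5 were lower, and Atf3 alone with Pdgfra at 0. At an unadjusted p under 0.05, 3 were lower with the first comparator and 4 with the second, and the list's median was -0.45 and -0.50.

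The named lower genes other than Il17a, Rhoq and Spp1 were mainly genes of matrix-producing cells: Tnc, Lox, Loxl2, Abi3bp, Crispld2, Fbln2, Vcan, Timp1 and Ccl2, with log2 differences from -4.68 to -4.01. Pdgfra was held to 0 in the members alone, so these values support nothing. Tnc was -4.68 ± 0.64 and, with Pdgfra at 0, -2.29 ± 0.58, and Timp1 was no longer called (adjusted p = 0.106). Abi3bp, Crispld2 and Vcan were not tested there. The 8 fibroblast markers summed to 1807, 2034 and 5637 CPM in members and to 38960, 22483 and 36845 in the comparator, and still to 18109, 2510 and 13612 in its Pdgfra-free part; 4 of the 7 fibroblast markers tested were lower there. Fibroblast RNA thus differed between the classes in either setting, and its part in the other differences was not tested. Spp1, the matrix cytokine osteopontin, measured 0, 36.0 and 47.5 CPM in members beside 2.63, 354 and 727, and was lower with both comparators (-3.96 ± 0.60). Rhoq, a small GTPase, was too (-4.13 ± 0.71). Erythroid markers were lower too, 4 of 5 with the first comparator and 3 of 4 with the second. They summed to 45.7, 90.0 and 7364 CPM in members and to 2842, 3641 and 7402 in the comparator, and at day 7 a single member held 60.1% of its UMIs in them. In the comparator 1 barcode of non-lesional skin and 1 of day 2 exceeded 1%, with 54.4% and 51.3% of their UMIs in these markers. Pooled over the libraries, the 4 haemoglobin genes were instead higher in members, such as Hbb-bs at 3254 CPM beside 2363. The part of erythroid RNA in the other differences was not tested. Of the keratinocyte markers Krt17 was higher with the first comparator (2.91 ± 0.83), from 630 day 7 UMIs in 7 barcodes, 518 of them in the deepest barcode, and the call was lost with Pdgfra at 0 (adjusted p = 0.299).

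Co-detection was counted within the 195 day 7 members, thinned to 1000 UMIs each. At that depth a cell without a UMI of a gene may still express it. Il1rl1 was detected in 75. Gata3 was detected in 52.0% of these (40.2 to 63.7) and in 28.3% of the 120 others (20.5 to 37.3), intervals that do not overlap. Klrg1 was detected in 37.3% (26.4 to 49.3) and 20.8% (14.0 to 29.2), and Areg in 9 of 75 and 30 of 120, with overlapping intervals in each pair. Ctla4 was detected in 53.3% and 60.0%, and Ikzf2 in 88.0% and 78.3%. Il10 was detected in 18 cells, of which 88.9% held Ctla4 (65.3 to 98.6), beside 54.2% of the 177 others (46.6 to 61.7). These cells share 1 library, so the shares describe that library and carry no test.

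**Figure D4:**
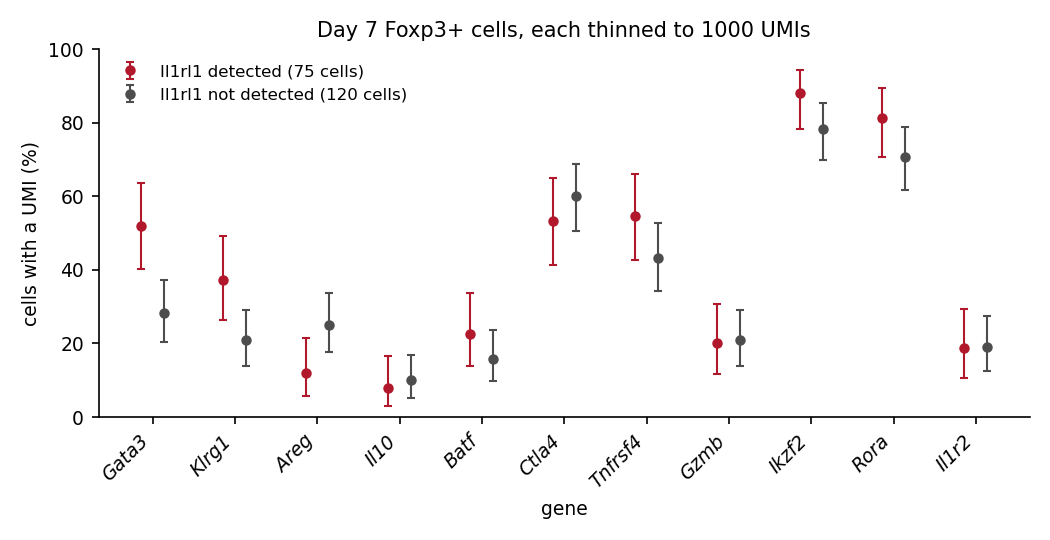
Percent of day 7 Foxp3+ cells with a UMI of each gene (y axis; genes on the x axis), for the 75 cells in which Il1rl1 was detected (red) and the 120 in which it was not (grey), each cell thinned to 1000 UMIs. Lines are exact 95% intervals; Gata3 stands apart at 52.0% and 28.3%, and the other 10 pairs of intervals overlap.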

How the data were processed

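The files deposited by the authors hold unnormalised UMI counts for each gene in each barcode. Cell Ranger and mm10 were used; the version is 3.0.2 per the submitters' processing notes, which also name Seurat 3.0, and 5.0.0 per the file headers. Barcodes were kept with at least 200 genes and at most 10% mitochondrial UMIs. Members, gene lists and comparisons were chosen with earlier results of these data known. UMIs were summed per library and class (at least 10 cells) and tested with edgeR 4.0.16 (TMM, filterByExpr, quasi-likelihood). The library was the block: both classes of a library come from the same tissue, so the pairing is by construction. Standard errors are the log2 difference over the square root of the F statistic and are approximate. Log2 differences are edgeR's, with its default prior count.

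The 12 genes named each way were those with the largest difference among genes called, in the same direction in all 3 libraries, with at least 50 CPM and detection in 10% of the higher class; genes of the rule, mitochondrial, ribosomal, haemoglobin and predicted genes and other-cell markers were left out. List members could also be named; the effector, survival and IL1 family genes drawn, and the genes of the day 7 co-detection plot, were picked after their values were seen. Zero levels use a floor of 3 counts over the group. In simulated data for this comparison (7671 genes), 74% of genes set 4-fold higher and 6% of those set 2-fold higher were called. Of genes set 4-fold and 2-fold lower, 56.8% and 6.67% were called, and of 7482 unchanged genes 1 was. The simulation used a single fixed dispersion, gave both classes of a library the same profile and changed only genes with many UMIs. These shares therefore do not give the power or the error rate in the real data. GENCODE M21 held 27645 of the 27998 gene identifiers. Promoters are from RefSeq and were matched by symbol. The T cell receptor constant genes of the lists, such as Trac and Trdc, are not among the genes counted and could not be used. Alternatives covered scaling, DESeq2 1.42.0, low-count and cell filters, thinning, comparator and left-out libraries.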

Additional observations from a re-analysis of the deposited data

How the results depend on the processing

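The counts of genes higher and lower in members (145 and 544) changed by over 1.5 times under several settings. Without the replicate block they were 19 and 88, with DESeq2 62 and 233, with Cd4 required in the comparator 10 and 142 (day 2, with 7 comparator cells, did not enter), and after thinning 41 and 75 of 2105 genes tested. With Pdgfra at 0 in both classes they were 38 and 105, and without the mixed barcodes as well 51 and 100; both settings were chosen after seeing the data. Leaving out 1 library at a time gave 18 to 213 higher and 95 to 592 lower, from 3285 to 9559 genes tested. Scaling by RLE factors, no low-count filter, at least 500 genes and at most 5% mitochondrial UMIs stayed within 1.5 times. Apart from the settings with fewer libraries, cells or genes, the cause was not tested. No named gene reversed in any setting in which it was tested; 10 of 24 lost their call without the block. Requiring 2 Foxp3 UMIs moved the Foxp3+ share to 0.965%, 4.76% and 24.8% for non-lesional skin, day 2 and day 7; thinning moved the first to 0.461% and the last to 20.9%, and a limit of 5% mitochondrial UMIs to 39.2% at day 7. Leaving out barcodes with 3 UMIs of any other-cell list left 9 Cd3+ barcodes of non-lesional skin and 2 of day 7, with a share of 0% in both. The fits with at least 2 Cd3 UMIs or at least 2 Foxp3 UMIs and without other-cell barcodes were not run, since fewer than 2 libraries kept 10 members, and the planned ratios between libraries were not formed, since fewer than 20 members came from non-lesional skin or from day 2.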
